A study of Homo sapiens with 2 samples.

Results

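LPAR1, LPAR2, LPAR3 and LPAR5 encode cell surface receptors for lysophosphatidic acid (LPA), and they are described here by the RNA level of each of their isoforms. The members were the rows of the deposited isoform table that carry these gene symbols, which gave 4 genes with 6 isoforms among 26260 gene symbols and 63236 isoforms in all. The samples came from HCT-116, a human cell line established from a colorectal carcinoma, with 1 library labelled as control and 1 library labelled as treated. The label text states LPA at 10 µM for 24 h given to serum-starved cells, and it does not say whether the control cells were starved as well. No genetic change is named for either group, and the line was grown in DMEM with serum. Poly-A RNA was sequenced without strand information, so reads of overlapping genes on opposite strands cannot be told apart. With 1 library per condition there was no replicate, so every difference is between these 2 libraries and carries no p-value.

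LPA is a small phospholipid that cells meet in serum and inflamed tissue, and it signals through G protein-coupled receptors. LPAR1, LPAR2 and LPAR3 belong to the EDG receptor family, which also holds the sphingosine 1-phosphate receptors, whereas LPAR5 belongs to a separate branch related to the purine receptors. The EDG-type LPA receptors signal through Gi and Gq proteins. In colorectal carcinoma cells, LPAR1 and LPAR2 have been studied mainly for migration and growth.

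All 4 genes lie on the minus strand of hg38. By GENCODE, LPAR1 (ENSG00000198121.13) spans chromosome 9 from 110873263 to 111038458 and LPAR2 (ENSG00000064547.13) chromosome 19 from 19623668 to 19628930. LPAR3 (ENSG00000171517.5) spans chromosome 1 from 84811602 to 84893213, and LPAR5 (ENSG00000184574.9) chromosome 12 from 6618835 to 6636447. The receptors are of similar size, with 364 coding codons for LPAR1, 351 for LPAR2, 353 for LPAR3 and 372 for LPAR5. The coding part is split over 3 exons in LPAR1 and 2 exons in LPAR2 and LPAR3, and lies in 1 exon in LPAR5. In the deposited table no other gene symbol shared a locus with any of the 4.

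The stretch upstream of a deposited start of each gene is shown because the isoforms of LPAR5 have separate starts, and those of the other receptors are set beside it. These are the last 120 bases before the start, 5′ to 3′ on the gene's strand, from RefSeq (GRCh38.p14), with CpG dinucleotides in capitals. The windows are chr9:111038086-111038205 for LPAR1, chr19:19628231-19628350 for LPAR2, chr1:84893214-84893333 for LPAR3 and chr12:6631650-6631769 for LPAR5, the last before the start of its isoform NM_001142961.
LPAR1: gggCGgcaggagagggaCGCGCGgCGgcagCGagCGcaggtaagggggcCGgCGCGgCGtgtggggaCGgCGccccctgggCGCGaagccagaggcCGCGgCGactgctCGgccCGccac
LPAR2: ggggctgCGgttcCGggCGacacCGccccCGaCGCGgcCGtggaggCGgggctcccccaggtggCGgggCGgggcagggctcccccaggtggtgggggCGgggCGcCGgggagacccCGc
LPAR3: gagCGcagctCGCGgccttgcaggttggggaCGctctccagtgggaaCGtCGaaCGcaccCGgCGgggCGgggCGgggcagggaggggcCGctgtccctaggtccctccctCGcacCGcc
LPAR5: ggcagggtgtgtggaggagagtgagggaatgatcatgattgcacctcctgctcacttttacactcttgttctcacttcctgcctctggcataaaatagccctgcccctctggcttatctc

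Over the 200 bases before the start, LPAR1 held 32 CpG, LPAR2 held 23 and LPAR3 held 22, against a median of 9 in 35116 RefSeq promoter windows of that length. LPAR5 held 1 CpG, and 18.0% of the windows held as few or fewer. The hexamer GGGCGG, read on both strands and containing 1 CpG itself, matched 4 times for LPAR1, 3 times for LPAR2, 2 times for LPAR3 and 0 times for LPAR5, and was present in 40.1% of all windows. TATAAA, also read on both strands, matched none of the 4 windows and 8.59% of all windows. At the starts used here, the 3 EDG-type genes thus had CpG-rich windows and this LPAR5 isoform did not, which is a description of the windows only. By GENCODE, LPAR1, LPAR2 and LPAR5 reach further upstream than these windows. The sequence before the other LPAR5 start, that of NM_020400, was not examined.

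Coding sequences of the 4 receptors were compared to see how far short reads could be shared among them. Over aligned bases, identity was 61.6% between LPAR1 and LPAR3, 61.3% between LPAR1 and LPAR2 and 57.3% between LPAR2 and LPAR3. LPAR5 shared 58.3% with LPAR2, 52.0% with LPAR3 and 51.0% with LPAR1. By this measure the EDG-type pairs were not in every case the more alike. Unrelated genes were not aligned for comparison, so how far these values reflect relatedness was not tested. The longest run of identical bases in any of the pairs was 15 nt, between LPAR1 and LPAR2. It is shown in capitals within 75 coding bases of each gene (GENCODE, hg38, minus strand), at chr9:110941942-110942016 for LPAR1 and chr19:19627064-19627138 for LPAR2.
LPAR1: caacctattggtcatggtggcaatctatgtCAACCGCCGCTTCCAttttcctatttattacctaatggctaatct
LPAR2: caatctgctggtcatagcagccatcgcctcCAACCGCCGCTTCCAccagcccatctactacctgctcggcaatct

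The values are FPKM, in which estimated fragment numbers are divided by transcript length and sequencing depth, so levels can be set side by side between genes. Depth was taken from the median of FPKM times length within a low range set beforehand. It came to about 16800000 fragments for the control library and 15800000 for the treated one. At that depth, 1 FPKM on a transcript of 2 kb is worth about 33.6 and 31.6 fragments. The range limits what the median can be, so the fragment numbers and counting intervals given here depend on that choice. A difference is given as log2((LPA FPKM + 1)/(control FPKM + 1)), called the log2 ratio, which understates differences at low levels. Where a pair of FPKM is given, the control library comes first. In all, 11688 genes with a mean of at least 1 FPKM were measured, and 95% of their log2 ratios lay between -0.51 and 0.49, with a median of 0.00. Of 7 colon epithelial markers 6 were measured, from CDX2 at a mean of 9.93 to KRT8 at a mean of 1358 FPKM, while VIL1, which encodes villin, was listed at 0 in both libraries. The markers of other cells summed to 5.78 and 4.32 FPKM (control and treated library) over 5 fibroblast genes, to 2.95 and 3.05 FPKM over 5 immune genes and to 0.105 and 0.121 FPKM over 4 endothelial genes. Nearly all of the fibroblast sum was COL1A1 (5.75 and 4.28 FPKM) and nearly all of the immune sum CD68 (2.64 and 2.85 FPKM), while PTPRC, DCN and COL1A2 were at 0 in both. Their part in the receptor levels was not tested. In bulk RNA, fewer cells carrying a transcript and less of it per cell cannot be told apart.

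LPAR2, the EDG-type receptor with 1 isoform in the table (NM_004720, 1795 nt), held the highest level of the 4. It had 15.6 FPKM in the control library (deposited bounds 11.0 to 20.2) and 21.9 FPKM in the treated library (15.6 to 28.2). The LPA value was the higher one, and the deposited bounds overlapped. The values correspond to about 471 and 620 fragments, and the ratio of 1.40 has a counting interval of 1.24 to 1.58 (95%, exact binomial, counting error only). The log2 ratio of 0.46 was exceeded by 361 of the 11688 measured genes, which puts it at percentile 96.9. Among 2143 genes within 1.5-fold of its mean level, the central 95% of log2 ratios ran from -0.51 to 0.49, so LPAR2 lay inside that range and near its upper end. LPAR2 made up 55.9% of the summed FPKM of the 4 receptors in the control library and 65.4% in the treated library.

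LPAR3, the other EDG-type gene with a single isoform (NM_012152, 1721 nt), was second. It had 5.38 FPKM in the control library (bounds 3.46 to 7.30) and 6.09 FPKM in the treated library (3.96 to 8.22). These ranges overlapped over most of their width. The ratio of 1.13, from about 155 and 165 fragments, had a counting interval of 0.904 to 1.42, which holds 1, and the log2 ratio was 0.15 (percentile 74.6). The LPAR3 difference thus lay within counting error. With 1 library per condition, variation between libraries could not be judged for any of the 4 genes.

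LPAR5, the receptor outside the EDG family, had 3.61 FPKM in the control library and 2.95 FPKM in the treated library, summed over 2 isoforms. Its log2 ratio of -0.22 lay at percentile 18.6, and the ratio of 0.817, from about 166 and 127 fragments, had a counting interval of 0.643 to 1.04. The isoforms have separate start sites, 4482 bases apart, and GENCODE places the whole coding part in the exon they share. NM_001142961, whose first exon of 65 nt is the nearer to the coding exon, had 2.58 FPKM in the control library (bounds 1.45 to 3.71) and 2.28 FPKM in the treated library (1.26 to 3.29). NM_020400, with a first exon of 225 nt further upstream, had 1.03 FPKM (0.312 to 1.74) and 0.672 FPKM (0.107 to 1.24). Both isoforms were lower in the treated library with overlapping bounds. The share of NM_001142961 was 71.5% in the control library and 77.2% in the treated library, the larger share in both. Its bounds overlapped those of NM_020400 in the control library and were narrowly separate in the treated library (1.26 against 1.24). Only the first exons, of 65 and 225 nt, tell the isoforms apart, and how many fragments fell in them was not measured.

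LPAR1, the EDG-type receptor best known for cell migration, had 3.32 FPKM in the control library and 2.54 FPKM in the treated library, again summed over 2 isoforms. The log2 ratio was -0.29 (percentile 12.8), and the ratio of 0.766, from about 174 and 127 fragments, had a counting interval of 0.604 to 0.968. Of the 4 genes it was the lowest in both libraries. Its isoforms differed more than the sum, as the plot of isoform FPKM with their bounds shows.

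**Figure D1:**
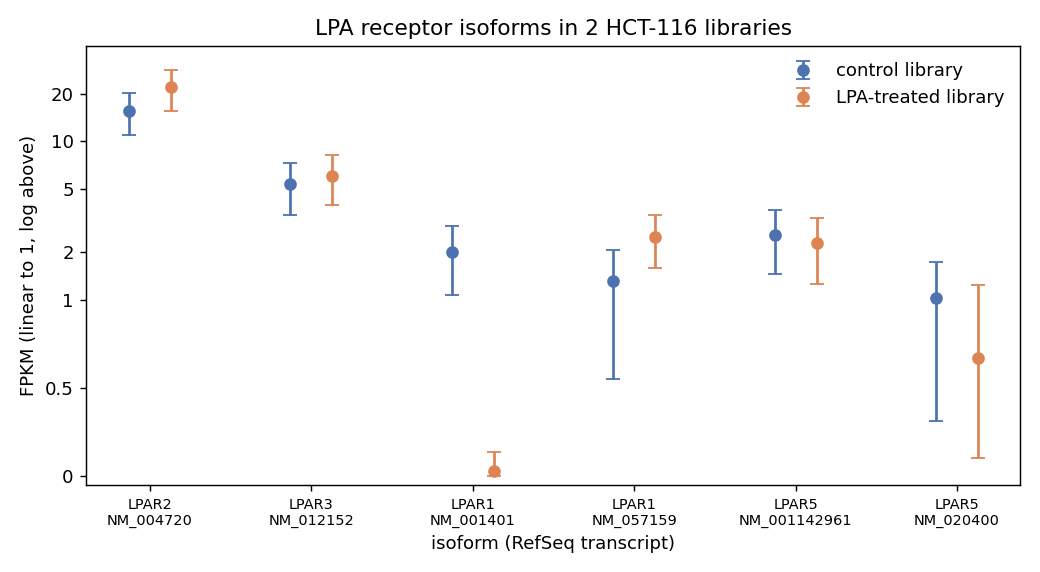
FPKM of the 6 isoforms of the LPA receptor genes (y axis, linear up to 1 and logarithmic above) in the control library and the treated library; points are the deposited FPKM and bars the deposited bounds, 1 library each. The bars overlap for 5 isoforms and are separate for LPAR1 NM_001401, at 2.01 FPKM in the control library and 0.0298 FPKM in the treated library.

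NM_001401 (3090 nt) had 2.01 FPKM in the control library (bounds 1.07 to 2.95) and 0.0298 FPKM in the treated library (0 to 0.139). In estimated fragments that is about 104 against 1. NM_057159 (3168 nt) had 1.31 FPKM in the control library (0.551 to 2.07) and 2.51 FPKM in the treated library (1.60 to 3.43), or about 70 against 126 fragments. NM_001401 was thus near 0 in the treated library, where NM_057159 held almost the whole level of the gene, while the control library held both. The share of NM_057159 was 39.5% in the control library and 98.8% in the treated library, a shift of 59.3 percentage points. With this leading isoform standing for the gene, the log2 ratio was 0.60 and no longer below 0.

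The isoforms share 1 start site identifier in the table, and their lengths differ by 78 nt. GENCODE exons were summed with their outer ends set to the deposited locus. They account for both lengths exactly when a 78-nt exon (chromosome 9, 110973481 to 110973558) is left out of NM_001401 and included in NM_057159. This exon lies upstream of the coding part, in the 5′ UTR, so both isoforms carry the same annotated coding exons. It makes up 2.46% of NM_057159. At the FPKM of that isoform its 78 nt are worth about 1.72 fragments in the control library and 3.10 in the treated library, leaving aside fragments that only cross its junctions or join its neighbours. Few fragments are thus expected within the exon that tells the isoforms apart, and how many crossed its junctions was not measured here.

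Of the 5 receptor isoforms with a mean of at least 1 FPKM, 1 was at least 2-fold apart with separate bounds, NM_001401 of LPAR1, at a log2 ratio of -1.55. It reached that mean (1.02 FPKM) only through the control library, so it had to differ, and its count is given as a description only. Among all 16999 isoforms measured in this way with an OK status, 678 (3.99%) met this rule, 306 (1.8%) lower and 372 (2.19%) higher in the treated library. Another leading isoform in the treated library was found for 1054 of 6666 genes with several isoforms (15.8%). A share shift of at least 50 points was found for 300 of them (4.5%), and the shift of LPAR1 was exceeded in 189 genes. Such shifts were more frequent at low levels. Among 1174 genes within 1.5-fold of the mean FPKM of LPAR1, 279 (23.8%) had another leading isoform and 108 (9.2%) shifted by at least 50 points, and of the 464 with 2 isoforms like LPAR1, 26 (5.6%) did so. At a mean of 10 FPKM or more 15 of 3267 genes (0.459%) shifted that far. LPAR5, at a similar level, shifted by 5.70 points. That was below the median of 7.54 points over all 6666 genes and of 13.8 points over the 1174 genes near the level of LPAR1.

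**Figure D2:**
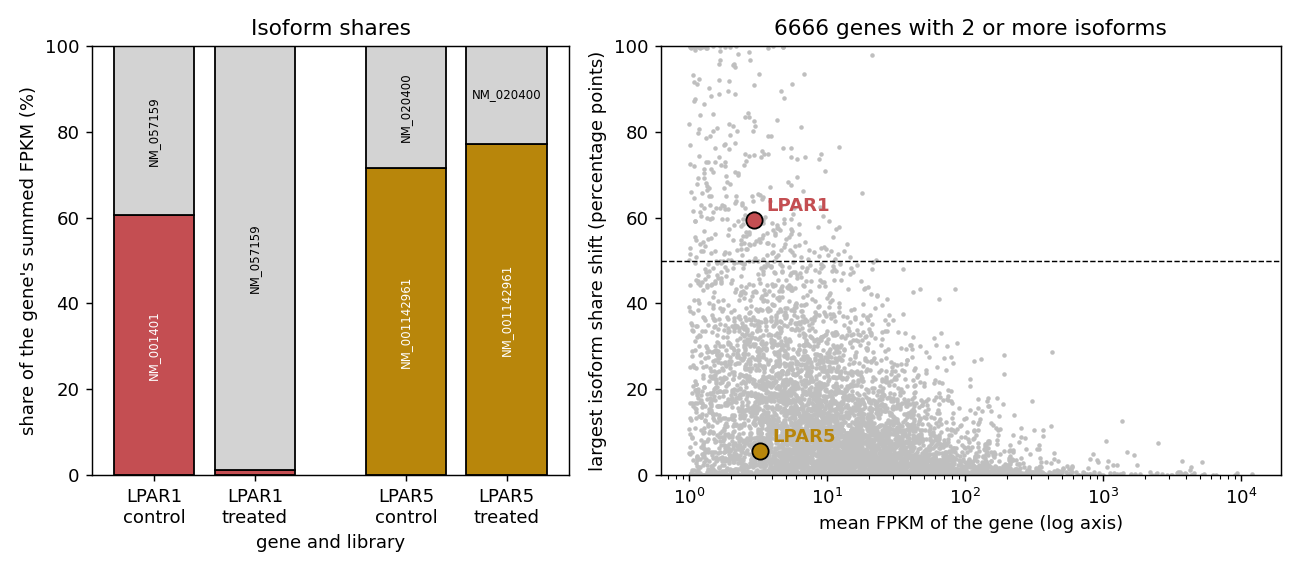
Left, share of each isoform in the summed FPKM of LPAR1 and LPAR5 (y axis, percent) in each library; right, largest isoform share shift between the libraries (percentage points) against mean FPKM (log axis) for the 6666 genes with several isoforms, with a dashed line at 50 points. LPAR1 lies above the line at 59.3 points and LPAR5 lies at 5.70 points. Grey points above the line are more frequent in this low range of FPKM than at higher FPKM.

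By gene, 0 of the 4 receptors were at least 2-fold apart, against 65 of 11688 measured genes (0.556%), of which 41 (0.351%) were higher and 24 (0.205%) lower in the treated library. LPAR2 and LPAR3 had log2 ratios above 0 and LPAR1 and LPAR5 below 0, with a median of -0.03, while 50.2% of all measured genes were above 0. The order of levels was LPAR2, LPAR3, LPAR5 and LPAR1 in both libraries. LPAR2 stood 2.91-fold above LPAR3 in the control library and 3.59-fold in the treated library. LPAR3 stood 1.49-fold and 2.07-fold above LPAR5. The counting intervals did not overlap in any of these pairs. Deposited bounds of LPAR2 and LPAR3 were also separate in both libraries. In the control library, however, the bounds of LPAR3 (3.46 to 7.30) overlapped those of LPAR5 NM_001142961 (1.45 to 3.71). LPAR5 and LPAR1 were not separated by their counting intervals in either library (1.09-fold and 1.16-fold). Among all measured genes, LPAR2 ranked 4149 in the control library and 3259 in the treated library, and LPAR1 ranked 9039 and 9673.

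**Figure D3:**
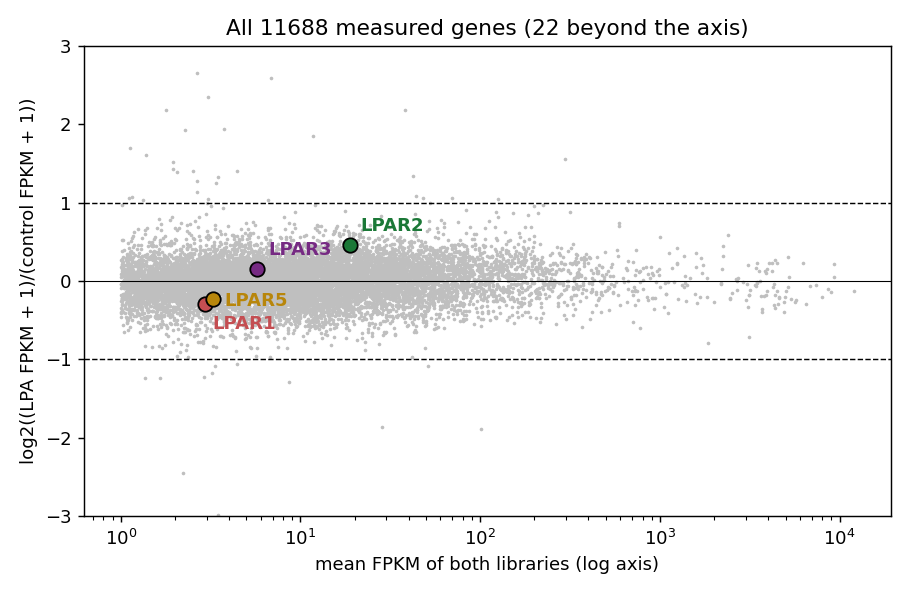
Log2 ratio of LPA to control FPKM (y axis, pseudocount 1) against mean FPKM of both libraries (log axis) for 11688 measured genes in grey, 22 of them beyond the axis, with the 4 receptor genes in colour and dashed lines at 2-fold. LPAR2 sits at 0.46, LPAR3 at 0.15, LPAR5 at -0.22 and LPAR1 at -0.29, all between the lines.

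Levels most like those of each receptor, by distance over log2(FPKM + 1) in the 2 libraries among 11632 genes, were those of PLIN2 and SLC39A14 for LPAR2 and of ALKBH1 and PHACTR4 for LPAR3. For LPAR5 they were RNF111 and TMF1, and for LPAR1 they were SRBD1 and TRAPPC11. PLIN2 had 15.5 and 21.4 FPKM. With 2 libraries this likeness describes similar levels and no more.

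Other cell surface receptors reported to respond to LPA were low or listed at 0. LPAR4 and P2RY10, from the same branch as LPAR5, were listed at 0 in both libraries. LPAR6 was listed at 0 as well, and shares its deposited locus with RB1 (5.30 and 3.79 FPKM). The upper bounds on its 5 isoforms were at most 0.0512 FPKM. Each of these bounds was the same in both libraries, so they are not read as a limit measured in either library. GPR35 had 2.01 and 1.77 FPKM over 3 isoforms, with NM_001195382 at 51.9% of the gene in the control library and 4.09% in the treated library. PPARG, a nuclear receptor for which LPA has been proposed as a ligand, had 31.6 and 26.2 FPKM. Both measured genes of this group had log2 ratios below 0, and neither was 2-fold apart.

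The sphingosine 1-phosphate receptors are the closest relatives of LPAR1, LPAR2 and LPAR3. S1PR5 (4.90 and 5.68 FPKM) and S1PR2 (3.93 and 4.67 FPKM) were measured, with log2 ratios of 0.18 and 0.20. The other 3 had a mean below 1 FPKM.

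All 8 G alpha subunit genes were measured, 4 above and 4 below 0, with a median log2 ratio of -0.04. GNAS, which encodes the stimulatory subunit, had 415 and 465 FPKM, and its locus holds 2 further symbols. GNAI3, which encodes an inhibitory subunit, had 32.8 and 26.1 FPKM (log2 ratio -0.32).

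Of 11 genes for receptor partners and desensitisation 10 were measured, 6 above and 4 below 0 (median 0.04). The highest log2 ratio of any pathway gene, 0.55 (percentile 98.2), was that of SLC9A3R2, whose product NHERF2 is a PDZ scaffold that binds the tail of the LPAR2 protein. It had 21.7 FPKM in the control library and 32.1 FPKM in the treated library. Its leading isoform had 17.9 FPKM (bounds 12.3 to 23.4) and 24.6 FPKM (16.7 to 32.5), with overlapping bounds, as for LPAR2. TRIP6, an adaptor that binds LPAR2, had 86.8 and 81.2 FPKM, and SIVA1, another LPAR2 partner, 201 and 197 FPKM. The arrestin genes ARRB1 (5.76 and 6.46 FPKM) and ARRB2 (30.1 and 32.3 FPKM) and the receptor kinase gene ADRBK1 (36.0 and 35.2 FPKM) had log2 ratios between -0.03 and 0.14.

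Of 7 genes for LPA supply and removal outside the cell 4 were measured, 2 above and 2 below 0. ENPP2, which encodes the LPA-producing enzyme autotaxin, had 0.0387 and 0.192 FPKM. PPAP2C, a lipid phosphate phosphatase gene, had 147 and 164 FPKM, and PPAP2B, another member of that family, 1.26 and 0.900 FPKM (log2 ratio -0.25). Over these 5 lists 26 of 36 genes were measured, 14 above and 12 below 0 with a median of 0.02, and 0 were 2-fold apart.

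**Figure D4:**
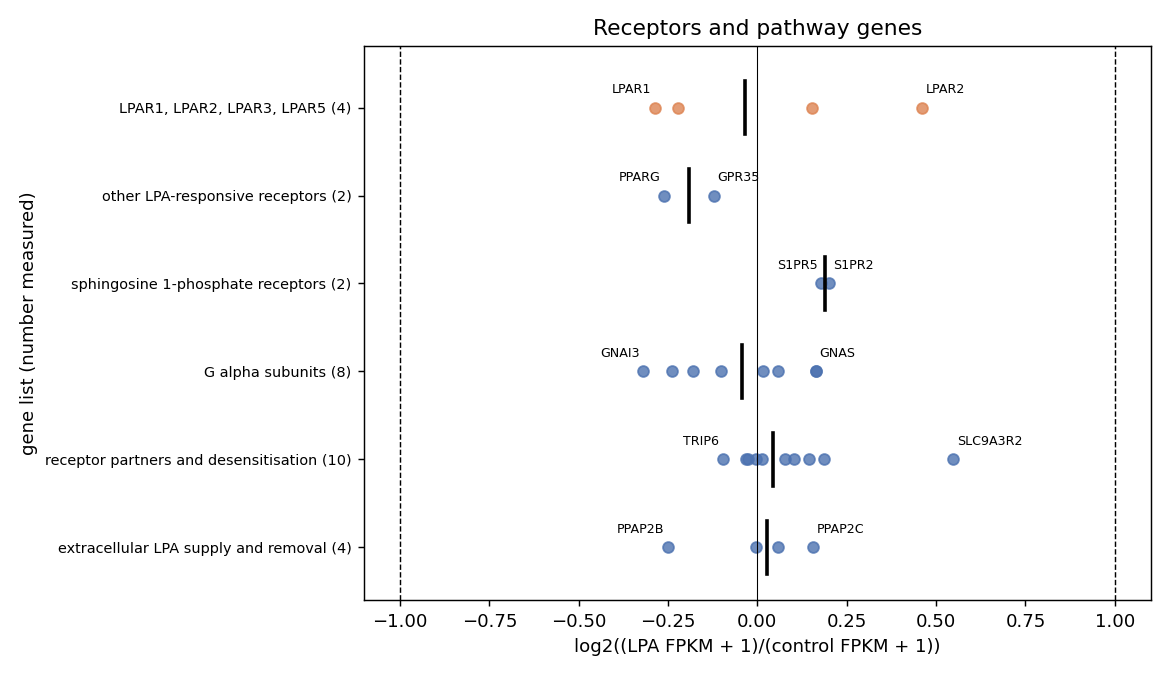
Log2 ratio of LPA to control FPKM (x axis, pseudocount 1) of the 4 receptor genes in orange and of the 26 measured pathway genes in blue, by list; short bars are list medians, dashed lines mark 2-fold, and the extremes of each list are named. All points lie between the lines, from GNAI3 at -0.32 to SLC9A3R2 at 0.55.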

How the data were processed

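The authors' deposited table lists FPKM for each isoform with a lower and an upper bound and a status in each library, per the file headers; which level the bounds stand for was not given. Tools in the submitters' processing notes are Cuffdiff 2.2.0, Cufflinks, TopHat2 2.0.12 and bcl2fastq 2.16.0.10, with the hg38 build; their settings and the library scaling are not stated there.

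Isoform FPKM were summed per symbol, leaving out 16 isoforms without an estimate in the treated library (status HIDATA), none of them a receptor isoform. Genes with a mean of at least 1 FPKM were compared with a pseudocount of 1. One fragment's worth was the median FPKM times length, within a low range set beforehand, of single-isoform genes above 2000 nt. Intervals (95%, exact Poisson and binomial) treat the rounded estimates as counts, so they cover counting error only. RefSeq names were matched to GENCODE 29 transcripts, for LPAR1 by start and by length with outer ends set to the deposited locus. All 4 genes had a promoter sequence. The code was checked on the control values with known changes put in and no noise added. That check says nothing about the error of isoform shares at low levels. Python 3.11.15, pandas 2.3.3, SciPy 1.17.1 and Biopython 1.88 were used.

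The members and lists were chosen with earlier results of these data known. Named pathway genes include the highest and lowest log2 ratio and the highest level of each list; others were named after their values were seen. Other pseudocounts, filters, centrings and gene summaries were tried. Some genes of the pathway are not reported here.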

Additional observations from a re-analysis of the deposited data

How the results depend on the processing

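Of 46 alternative values 5 moved beyond the counting error of the value or 1.5 times the count reported, and 41 did not. The 41 include values that could not move, such as the leading isoform of a single-isoform gene. They also include isoform shares, to which neither rule was applied, so the tally overstates how much was tested. For LPAR1 the leading isoform gave a log2 ratio of 0.60 in place of -0.29, because the exchanged isoform NM_001401 is then left out. Over the alternatives the log2 ratio ran from 0.38 to 0.48 for LPAR2, 0.10 to 0.18 for LPAR3 and -0.28 to -0.12 for LPAR5. A pseudocount cannot change a direction, and LPAR2 and LPAR3 have only 1 isoform to summarise. Only centring, and for LPAR5 the leading isoform, could have changed the direction, and neither did. A pseudocount of 5 took LPAR1 to -0.14, LPAR5 to -0.12 and LPAR3 to 0.10, each over 1.5 times nearer 0. The count of all measured genes at least 2-fold apart, 65, was 121 with a pseudocount of 0.1, 35 with a pseudocount of 5, 36 at a mean of at least 5 FPKM and 246 with leading isoforms; the number of receptors and of pathway genes that far apart was 0 in each. Centring on the reference genes removed 0.05 from each log2 ratio. No paired analysis was possible because there is 1 library per group, both numbered 3. At the estimated depth the counting intervals of LPAR3 and LPAR5 held a ratio of 1.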
